A study of Homo sapiens with 4 samples.

Results

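The AP-1 transcription factor genes FOS, FOSB, FOSL1, FOSL2, JUN, JUNB, JUND and BATF3, together with EGR1 and MYC, were followed in cells labelled HepG2, with and without an enhancer of C/EBPβ. The list of 10 genes was set by name, and all 10 were found by symbol among 57768 genes. HepG2 is an established human liver cancer cell line, but the hepatocyte markers described further on were near 0, so the identity of the line is in doubt and rests on the labels. The RNA-seq set holds 2 WT libraries and 2 from C/EBPβ enh-/- cells, whose enhancer copies were both cut out with CRISPR/Cas9, and the labels name no added agent in either genotype. The labels do not say whether libraries of the same genotype came from separate cultures, or how many clones the C/EBPβ enh-/- cells represent, so p-values measure only the spread between these libraries, which may be technical. Values are FPKM, fragments per kilobase of transcript, scaled to the mapped fragments of the library.

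AP-1 is a dimer of basic leucine zipper proteins. A JUN protein pairs with itself or with a FOS protein and binds the sequence TGACTCA, and C/EBPβ belongs to the same structural class. FOS, FOSB, JUN, JUNB and EGR1 are immediate-early genes, transcribed within minutes of a growth factor or stress signal through the MAP kinases without new protein synthesis, whereas JUND and FOSL2 are usually transcribed more steadily. BATF3 pairs with JUN proteins but lacks a transactivation domain of its own. EGR1 is a zinc finger factor of the same early response, and MYC, which binds DNA with MAX, drives ribosome production and metabolism in dividing cells. In the liver these factors are known for the early response to partial hepatectomy.

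From the spacing of the low FPKM values, the libraries held about 39200000 and 44700000 fragments for WT cells, against about 22000000 and 48600000 for C/EBPβ enh-/- cells, with C/EBPβ enh-/- library 1 the least deep. Its 5 highest genes held 35.1% of its FPKM total, against 18.8% to 27.4% in the other 3 libraries. Across tested genes, Pearson's r was 0.962 for the WT pair, 0.948 for the C/EBPβ enh-/- pair and 0.903 to 0.934 for pairs of unlike genotype, with genes not being independent. CEBPB, the gene for which the enhancer is named, was at 30.6 and 19.2 FPKM in WT cells and at 12.4 and 11.8 in C/EBPβ enh-/- cells. All 20 hepatocyte markers were below an FPKM of 1 in every library, which goes against the label. ALB was at most 0.0553 FPKM, HNF4A at most 0.0409 and AFP, a marker that HepG2 cells are known for, at most 0.0605, and FOXA2 and APOC3 were listed at 0 in every library. The summed FPKM of 10 epithelial markers was 674 and 804 in WT cells and 240 and 243 in C/EBPβ enh-/- cells, and that of 10 fibroblast and mesenchymal markers was 375 and 534 against 181 and 274. Most of the latter sum was S100A4, at 315.3 and 471.4 FPKM in WT cells against 119.3 and 196.4, while COL3A1 was at 33.2 and 31.9 against 45.8 and 55.7, so the sum does not stand for the whole list, of which 0 of 5 tested genes passed (limma, with 2 lower and 1 higher at an unadjusted p under 0.05). Of the 3 tested epithelial markers, KRT8 (log2 fold change -1.68, limma adjusted p = 0.0325) and KRT18 (-1.52, limma adjusted p = 0.0243) fell in C/EBPβ enh-/- cells and made up most of the epithelial sum. The call of each was lost in 8 of 14 alternatives, with adjusted p from 0.102 to 0.215 for KRT8 and from 0.101 to 0.209 for KRT18 (limma) with any 1 library left out, and both stayed negative. EPCAM and CDH1 were at most 0.0081 FPKM. The part of these shifts in the results that follow was not tested. In such bulk libraries, fewer cells of a type and less RNA per cell cannot be told apart.

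In WT cells MYC was the most abundant of the 10 transcripts and EGR1 the least. The order of the mean FPKM was MYC (109), JUND (63.0), JUNB (31.5), FOSL2 (22.9), JUN (3.93), FOS (2.30), BATF3 (1.41), FOSL1 (1.02), FOSB (0.343) and EGR1 (0.102). In this order BATF3 and FOSL1 overlapped between the WT libraries, and the other neighbours were apart. In C/EBPβ enh-/- cells the first 6 places were held by the genes in the same order, but JUND and JUNB overlapped, and from JUN downwards every gene overlapped with the next. MYC, JUND, JUNB and FOSL2 thus made up most of the RNA of the group in both genotypes, and the 6 other genes had a mean below 10 FPKM. FPKM is corrected for transcript length, so these are levels that can be set side by side across genes.

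**Figure D1:**
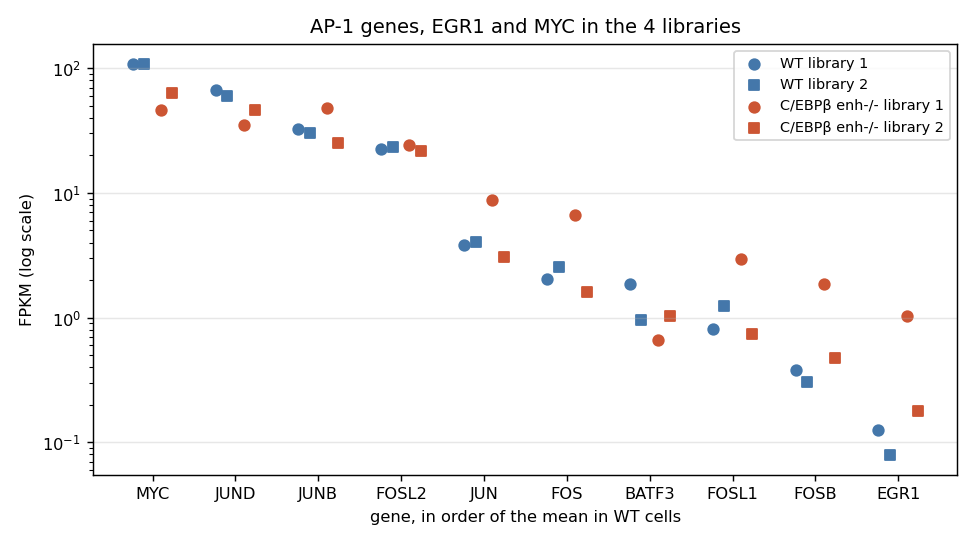
FPKM on a log axis for each of the 10 genes (horizontal axis, in order of the WT mean) in the 2 WT libraries (blue) and the 2 C/EBPβ enh-/- libraries (red). MYC and JUND lie lower in both C/EBPβ enh-/- libraries. FOS, FOSB, FOSL1, JUN, JUNB and EGR1 have their highest point in C/EBPβ enh-/- library 1, as does FOSL2 by a small margin.

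MYC was the gene with the largest genotype difference among the 8 that could be tested. MYC (ENSG00000136997.10, chromosome 8 of GRCh37 from 128747680 to 128755197, plus strand, 3 exons) stood at 108.9 FPKM in WT library 1 and 108.3 in WT library 2, and at 46.1 in C/EBPβ enh-/- library 1 and 62.8 in library 2. The WT libraries were nearly equal, and both C/EBPβ enh-/- libraries lay well below them. The WT mean was 109 ± 0.371 (SD, n = 2) and the C/EBPβ enh-/- mean 54.4 ± 11.8 (SD, n = 2), a ratio of 0.501. The log2 fold change of FPKM + 1 was -1.0 (standard error, SE, 0.23, 95% interval from -1.56 to -0.44, adjusted p = 0.0878, limma with Benjamini-Hochberg adjustment over 12491 genes), which did not pass the threshold of 0.05. It was -0.83 when each library was centred on its median, and -0.78 without C/EBPβ enh-/- library 1. The 421 other tested genes of chromosome 8 had a median log2 fold change of 0.21, and the 3 within 1 Mb of MYC a median of 0.11. CASC11, a long non-coding RNA on the opposite strand that overlaps the start of MYC, was at 0.0645 to 0.434 FPKM.

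JUND, the JUN family member with the highest mean in both genotypes and one that is often credited with restraining growth, showed a smaller difference in the same direction. JUND (ENSG00000130522.4, chromosome 19 of GRCh37 from 18390504 to 18392432, minus strand, 1 exon) was measured at 66.7 and 59.4 FPKM for WT cells, against 35.1 and 45.9 for C/EBPβ enh-/- cells. The genotypes did not overlap. The mean was 63.0 ± 5.16 (SD, n = 2) against 40.5 ± 7.62 (SD, n = 2), and the log2 fold change was -0.64 (SE 0.23, 95% interval from -1.19 to -0.08, adjusted p = 0.187, limma). It was -0.46 with centred libraries, -0.41 with libraries rescaled without their highest genes and -0.45 without C/EBPβ enh-/- library 1. On chromosome 19 the 810 other tested genes had a median log2 fold change of 0.02, and the 50 within 1 Mb of JUND a median of -0.20. The median was lower on chromosome 14 of FOS (-0.39), chromosome 2 of FOSL2 (-0.44) and chromosome 1 of JUN and BATF3 (-0.22). It was -0.02 on chromosome 11 of FOSL1 and 0.01 on chromosome 5 of EGR1. The part of such chromosome shifts in the differences of single genes was not tested.

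Among the 8 tested genes, 0 passed the threshold in either direction (limma, adjusted p under 0.05), against 1.21% of all tested genes called lower (151) and 0.248% called higher (31) in C/EBPβ enh-/- cells. Over all tested genes the split was 68 lower and 31 higher with each library centred on its median, 61 and 23 with libraries rescaled to the same total, and 0 of the 8 genes passed in either. At an unadjusted p under 0.05, 2 of the 8 were lower (MYC and JUND) and 0 higher, against 16.9% lower and 3.86% higher of all tested genes. This background depended on the scaling, with 2114 genes lower and 482 higher as deposited, 1263 and 1142 with centring, and 1138 and 1283 with libraries rescaled without their highest genes, and 1 of the 8 was lower in each of the latter. MYC and JUND were also the only ones of the 8 whose genotypes did not overlap, and 37.5% of all tested genes were lower in each C/EBPβ enh-/- library than in either WT library, so 2 of 8 is no more than the background. With 2 libraries per genotype the smallest two-sided exact permutation p is 0.333, above the threshold for any single gene. The median log2 fold change of the 8 genes was 0.07, against -0.14 for all tested genes. It was -0.29 without C/EBPβ enh-/- library 1 and 0.34 without library 2, against -0.19 and -0.10 for all tested genes, so its sign rested on 1 library.

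**Figure D2:**
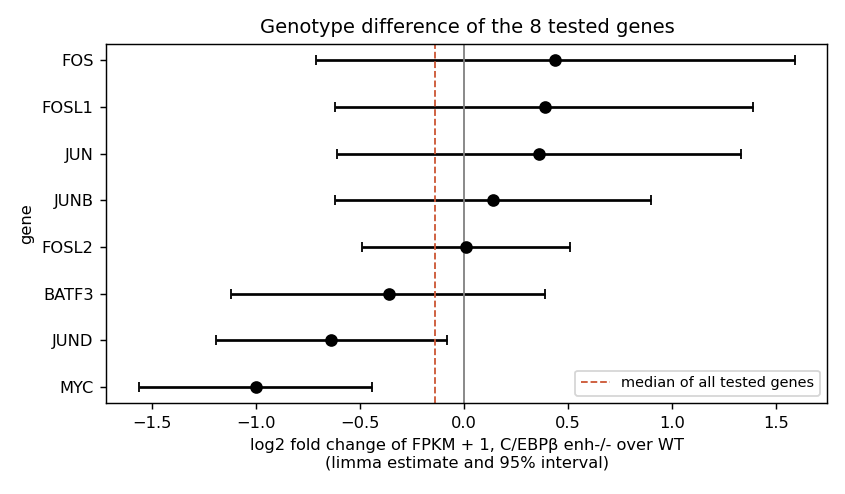
Log2 fold change of FPKM + 1 between C/EBPβ enh-/- and WT cells (horizontal axis) for the 8 tested genes (vertical axis), with the limma estimate as a point and its 95% interval as a bar. The intervals of MYC and JUND lie below 0, those of the 6 others include 0, and the dashed line marks the median of all tested genes at -0.14.

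The genes FOS, FOSB, FOSL1, JUN, JUNB and EGR1 behaved differently from MYC and JUND. Each had its highest value in C/EBPβ enh-/- library 1, while C/EBPβ enh-/- library 2 lay between 0.697 times (FOS) and 1.75 times (EGR1) the WT mean. FOSL2 was also highest in C/EBPβ enh-/- library 1, by a small margin. With it, 5 of the 8 tested genes were highest in that library, against 28.8% of all tested genes. FOS (ENSG00000170345.5, chromosome 14 of GRCh37 from 75745529 to 75748933, 4 exons), the founding partner of JUN in AP-1, had 2.06 and 2.54 FPKM in the WT libraries, 6.62 in C/EBPβ enh-/- library 1 and 1.60 in library 2. The C/EBPβ enh-/- libraries therefore enclosed the WT range, with a mean of 4.11 ± 3.55 (SD, n = 2) against 2.30 ± 0.338 (SD, n = 2). The log2 fold change was 0.44 (SE 0.48, limma adjusted p = 0.651), and without C/EBPβ enh-/- library 1 it was -0.34.

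JUN (ENSG00000177606.5, chromosome 1 of GRCh37 from 59242517 to 59249720, minus strand, 1 exon), which binds DNA with FOS and is activated by the kinase JNK, had 3.84 and 4.02 FPKM in WT cells and 8.83 and 3.08 in C/EBPβ enh-/- cells. JUNB (ENSG00000171223.4, chromosome 19 of GRCh37 from 12902300 to 12904129, 1 exon), a weaker activator that can oppose JUN, had 32.7 and 30.3 FPKM in WT cells and 47.9 and 25.1 in C/EBPβ enh-/- cells. In both genes the WT libraries were close together and lay between the C/EBPβ enh-/- libraries. The log2 fold change was 0.36 for JUN (SE 0.41, limma adjusted p = 0.656) and 0.14 for JUNB (SE 0.32, limma adjusted p = 0.841). Without C/EBPβ enh-/- library 1, these values were -0.27 and -0.31, so the sign of both differences rested on that library. HOOK2, on the opposite strand, overlaps JUNB in the annotation and was at 4.06 to 6.23 FPKM.

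FOSL1 (ENSG00000175592.4, chromosome 11 of GRCh37 from 65659520 to 65668044, 4 exons), which encodes FRA1, was low, at 0.810 and 1.23 FPKM in WT cells and 2.96 and 0.743 in C/EBPβ enh-/- cells. Its log2 fold change was 0.39 (SE 0.42, limma adjusted p = 0.647), and -0.21 without C/EBPβ enh-/- library 1. The FOSL1 values amount to roughly 54 and 94 fragments for WT cells, against 111 and 61 for C/EBPβ enh-/- cells. FOSL2 (ENSG00000075426.7, chromosome 2 of GRCh37 from 28615315 to 28640184, 4 exons), which encodes FRA2, was the steadiest gene of the group, at 22.5 and 23.2 FPKM in WT cells and 24.3 and 21.8 in C/EBPβ enh-/- cells. Its log2 fold change was 0.01 (SE 0.21, 95% interval from -0.49 to 0.51, adjusted p = 0.985, limma).

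FOSB and EGR1 had a mean FPKM below 1 over the 4 libraries and were not among the tested genes. FOSB (ENSG00000125740.9, chromosome 19 of GRCh37 from 45971253 to 45978437, 4 exons) had 0.381 and 0.305 FPKM in WT cells and 1.86 and 0.472 in C/EBPβ enh-/- cells. EGR1 (ENSG00000120738.7, chromosome 5 of GRCh37 from 137801168 to 137804992, 2 exons) had 0.125 and 0.0789 FPKM in WT cells and 1.04 and 0.178 in C/EBPβ enh-/- cells. In both genes the C/EBPβ enh-/- libraries lay above both WT libraries, by a small margin in library 2. The same order held for 15.1% of all tested genes, which these low genes are not among. In a fit without the filter on low values, the log2 fold change was 0.61 for FOSB (SE 0.41, limma adjusted p = 0.671) and 0.49 for EGR1 (SE 0.32, limma adjusted p = 0.671). At the depths given above, the EGR1 values amount to roughly 15 and 11 fragments for WT cells, against 72 and 27 for C/EBPβ enh-/- cells, and those of FOSB to roughly 56 and 52 against 154 and 87. FOSB lies wholly within the annotated span of ERCC1, which is on the opposite strand at 28.1 to 31.6 FPKM, and whether the reads kept their strand is not given in the sources used here.

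BATF3 (ENSG00000123685.4, chromosome 1 of GRCh37 from 212859759 to 212873182, minus strand, 3 exons) had 1.86 and 0.953 FPKM in WT cells and 0.666 and 1.03 in C/EBPβ enh-/- cells, and it was the gene whose WT libraries differed most on the log2 scale. The genotypes overlapped, with a log2 fold change of -0.36 (SE 0.32, limma adjusted p = 0.556). It was -0.09 without WT library 1, -0.64 without WT library 2 and -0.22 without C/EBPβ enh-/- library 1. The values correspond to roughly 12 to 61 fragments per library.

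Within the C/EBPβ enh-/- genotype, library 1 exceeded library 2 by 4.14-fold in FPKM for FOS, 3.98-fold for FOSL1, 3.93-fold for FOSB, 2.87-fold for JUN, 1.91-fold for JUNB and 5.82-fold for EGR1. The ratio was 1.11 for FOSL2, 0.765 for JUND, 0.735 for MYC and 0.648 for BATF3. Between WT libraries 1 and 2 the same ratio lay from 0.658 for FOSL1 to 1.95 for BATF3. On the log2(FPKM + 1) scale, 3 of the 8 tested genes (FOS, FOSL1 and JUN) were at least 1 higher in C/EBPβ enh-/- library 1 than in library 2, whereas 2.83% of all tested genes were, and 2.24% were at least 1 higher in library 2. C/EBPβ enh-/- library 1 was the highest and library 2 the lowest of the 4 libraries for 5 of the 8 tested genes, against 9.07% of all tested genes. The 5 were FOS, FOSL1, JUN, JUNB and FOSL2, of which FOSL2 was nearly flat, at 24.3 and 21.8 FPKM in these libraries. Library 2 alone was lowest for 5 of the 8, where 34.2% of all tested genes were. The WT libraries were at least 1 apart for 0 of the 8, against 3.35% of all tested genes. These counts describe 1 library against 1 and carry no replicate check. The shallower depth of C/EBPβ enh-/- library 1 moves with this pattern, and its part was not tested.

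**Figure D3:**
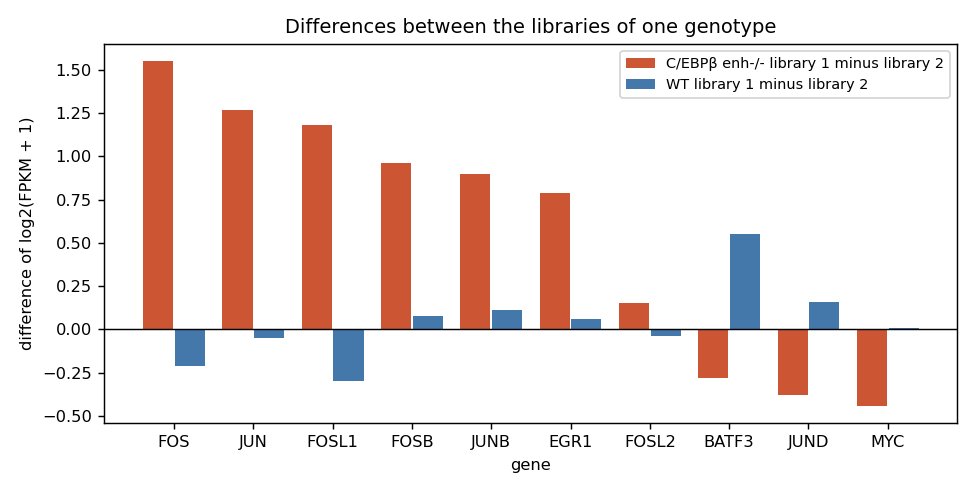
Difference of log2(FPKM + 1) between library 1 and library 2 (vertical axis) for the 10 genes (horizontal axis), within C/EBPβ enh-/- cells (red) and within WT cells (blue). The red bars reach 1.55 for FOS and are below 0 for BATF3, JUND and MYC, and the blue bars lie between -0.30 and 0.55.

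The makeup of the JUN and FOS families in C/EBPβ enh-/- library 1 stood apart from that in the other 3 libraries. Of the summed FPKM of JUN, JUNB and JUND, JUND held 64.6% and 63.4% in the WT libraries, 38.2% in C/EBPβ enh-/- library 1 and 61.9% in library 2. The JUNB share was 31.7% and 32.3% for WT cells, against 52.1% and 33.9% for C/EBPβ enh-/- cells. JUND was thus the main JUN transcript in 3 libraries and JUNB in C/EBPβ enh-/- library 1. The sum itself was 103 and 93.7 FPKM in WT cells and 91.8 and 74.1 in C/EBPβ enh-/- cells. Of the FOS family, FOSL2 held 87.4% and 85.1% in WT cells and 68.0% and 88.6% in C/EBPβ enh-/- cells, while FOS held 7.98% and 9.29% against 18.5% and 6.5%. These shares are taken within a library and do not depend on how the libraries were scaled to each other.

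**Figure D4:**
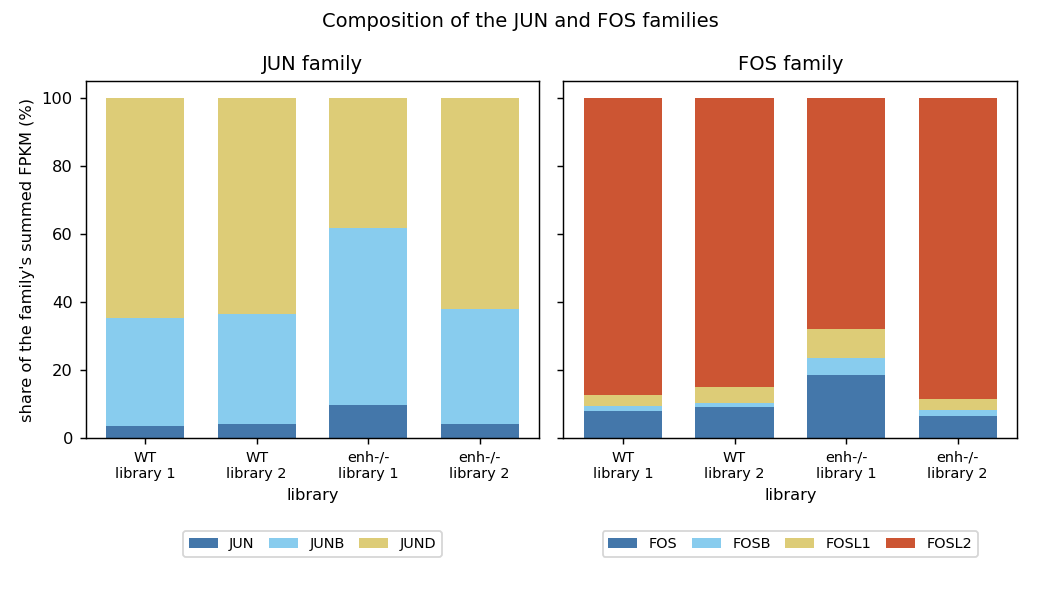
Share of each gene in the summed FPKM of the JUN family (left) and of the FOS family (right), in percent, for the 2 WT and the 2 C/EBPβ enh-/- libraries. C/EBPβ enh-/- library 1 differs from the 3 others, with JUND at 38.2% and FOSL2 at 68.0%.

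The promoters of the genes that were high together in C/EBPβ enh-/- library 1 are shown with that of JUND, which was not. Promoters from RefSeq (GRCh38.p14) were found for 7 of the 10 genes and not for FOSL1, BATF3 or MYC. The 210 bases before the start of FOS (chr14:75745321-75745530, plus strand), FOSB (chr19:45971044-45971253, plus strand), JUN (chr1:59249720-59249929, minus strand), JUNB (chr19:12902090-12902299, plus strand), EGR1 (chr5:137800958-137801167, plus strand) and JUND (chr19:18392433-18392642, minus strand) were placed on GRCh37 by matching the RefSeq sequence, and read as follows on the strand of the gene. Capitals mark TGACG and its reverse complement CGTCA, the core of the site bound by ATF and CREB proteins, the variant AP-1 site TGACATCA of JUN, and in EGR1 the CArG boxes bound by serum response factor.
FOS: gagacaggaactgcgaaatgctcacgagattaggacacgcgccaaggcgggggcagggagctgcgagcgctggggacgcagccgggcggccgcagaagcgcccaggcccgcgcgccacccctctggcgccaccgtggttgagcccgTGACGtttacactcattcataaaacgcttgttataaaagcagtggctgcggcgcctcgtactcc
FOSB: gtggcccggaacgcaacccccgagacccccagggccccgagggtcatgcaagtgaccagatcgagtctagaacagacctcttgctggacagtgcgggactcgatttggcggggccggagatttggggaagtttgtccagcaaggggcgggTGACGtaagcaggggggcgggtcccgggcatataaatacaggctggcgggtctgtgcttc
JUN: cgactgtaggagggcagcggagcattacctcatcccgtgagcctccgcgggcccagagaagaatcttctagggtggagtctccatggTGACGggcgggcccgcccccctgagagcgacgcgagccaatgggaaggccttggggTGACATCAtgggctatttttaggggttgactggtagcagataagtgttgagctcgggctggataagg
JUNB: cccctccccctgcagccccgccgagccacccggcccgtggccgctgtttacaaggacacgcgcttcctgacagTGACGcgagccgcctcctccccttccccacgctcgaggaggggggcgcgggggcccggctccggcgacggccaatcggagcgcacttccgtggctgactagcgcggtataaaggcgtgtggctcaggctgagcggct
EGR1: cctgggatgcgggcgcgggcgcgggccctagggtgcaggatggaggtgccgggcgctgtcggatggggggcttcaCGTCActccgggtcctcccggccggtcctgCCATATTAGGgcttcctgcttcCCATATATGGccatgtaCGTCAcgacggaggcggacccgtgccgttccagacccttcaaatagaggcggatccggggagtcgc
JUND: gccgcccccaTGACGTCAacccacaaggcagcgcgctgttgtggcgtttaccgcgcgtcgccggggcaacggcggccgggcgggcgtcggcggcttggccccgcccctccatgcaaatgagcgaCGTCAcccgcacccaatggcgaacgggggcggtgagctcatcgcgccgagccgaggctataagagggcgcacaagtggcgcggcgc

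The core TGACG was present on either strand within the 250 bases before the start of all 7 genes with a promoter, and in 21.2% of the 35116 promoters of the RefSeq table. It stood at position -64 in FOS and -60 in FOSB, counted from the first transcribed base, and at -123 in JUN and -137 in JUNB. FOSL2, whose level hardly differed between libraries, had it as well, at -201 and -66, and JUND had it 3 times, so the core did not separate the genes that were high in C/EBPβ enh-/- library 1 from the others. The first 2 of the JUND matches overlap in the full site TGACGTCA, which 1.65% of the promoters hold. JUN had TGACATCA at -67, but this variant was searched for as a site of the JUN promoter, so the match was given in advance. The sequence is found in 2.37% of the promoters. EGR1 had CArG boxes at -105 and -83, and 1.16% of the promoters hold one. FOS, FOSB and JUNB had the TATA box TATAAA from -33 to -30, which 10.7% of the promoters hold. The AP-1 site TGACTCA (4.2% of promoters), the C/EBP consensus (0.0626%) and the E-box CACGTG (6.34%) occurred in 0 of the 7 windows. All motifs were searched on both strands, and a match is a description of the letters only.

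Other genes of the immediate-early response were examined as a list of 36, of which 32 were tested. Of these, 0 passed the threshold (limma), with 3 of 32 lower and 3 higher at an unadjusted p under 0.05, where 16.9% and 3.86% of all tested genes were, and the median log2 fold change was 0.19 against -0.14 for all tested genes. The largest values were in KLF4, a zinc finger factor, at 2.74 and 1.29 FPKM in WT cells and 7.14 and 7.90 in C/EBPβ enh-/- cells (log2 fold change 1.54, SE 0.30, limma adjusted p = 0.0625), and in SGK1, a serum-induced kinase, at 166 and 137 against 470 and 303 (log2 fold change 1.32, SE 0.27, limma adjusted p = 0.0706). For both, each C/EBPβ enh-/- library was above each WT library, unlike for FOS or JUN. Between the C/EBPβ enh-/- libraries, 11 of the 32 genes were at least 1 higher in library 1 on the log2(FPKM + 1) scale and 0 were at least 1 higher in library 2, against 2.83% and 2.24% of all tested genes. C/EBPβ enh-/- library 1 was the highest of the 4 libraries for 18 of the 32 genes, against 28.8% of all tested genes.

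Within this list of immediate-early genes, the widest gaps between the C/EBPβ enh-/- libraries on the log2(FPKM + 1) scale were those of CTGF, DUSP5 and CYR61, which were chosen after their values were seen. CTGF, a secreted matrix protein, had 6.58 and 14.1 FPKM in WT cells and 30.7 and 7.25 in C/EBPβ enh-/- cells. DUSP5, a phosphatase that inactivates ERK, had 1.55 and 1.47 against 5.43 and 0.738. CYR61, a relative of CTGF, had 9.63 and 18.3 against 24.01 and 5.94. In all 3 genes C/EBPβ enh-/- library 1 was the highest of the 4 libraries, as for FOS and JUN. The summed FPKM of 8 leukocyte and blood markers was 8.67 in C/EBPβ enh-/- library 1 and 2.42 to 4.4 in the others. Of these markers only CD68 reached an FPKM of 1, at 7.79 in C/EBPβ enh-/- library 1 and 2.17 to 3.98 in the others. PTPRC, which defines leukocytes, was at most 0.0589 FPKM in every library and was 0.000351 in C/EBPβ enh-/- library 1.

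The kinases and partners around these factors showed no called gene either. Of 24 genes of the ERK, JNK and p38 cascades, which phosphorylate JUN, FOS and the factors at the CArG box, 23 were tested and 0 passed the threshold (limma), with a median of -0.10, against -0.14 for all tested genes. At an unadjusted p under 0.05, 3 of the 23 were lower and 0 higher, which is no more than the background of 16.9% and 3.86%. RPS6KA1, a kinase downstream of ERK, was at 16.2 and 18.8 FPKM in WT cells and 9.44 and 8.75 in C/EBPβ enh-/- cells (log2 fold change -0.87, SE 0.22, limma adjusted p = 0.0962), and MAP2K2, which activates ERK, was at 83.1 and 109 against 46.5 and 64.6 (log2 fold change -0.78, SE 0.26, limma adjusted p = 0.161). None of the 23 differed by 1 or more between the C/EBPβ enh-/- libraries.

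Among 29 other basic leucine zipper partners, 20 were tested and 0 passed (limma), with 1 lower and 1 higher at an unadjusted p under 0.05 (background 16.9% and 3.86%) and a median of -0.36, against -0.14. JDP2, a repressor that pairs with JUN proteins, had the largest difference, at 25.7 and 21.0 FPKM in WT cells and 3.73 and 8.62 in C/EBPβ enh-/- cells (log2 fold change -1.85, SE 0.35, limma adjusted p = 0.0625), and ATF5 was at 2.86 and 4.50 against 6.86 and 6.69 (log2 fold change 0.75, SE 0.26, limma adjusted p = 0.168). In neither did the genotypes overlap. JDP2 lies within 1 Mb of FOS on chromosome 14, where the 21 tested genes other than FOS had a median of -0.4. In 2 of the 20 (MAFF and CREB3) C/EBPβ enh-/- library 1 was at least 1 above library 2 on the log2(FPKM + 1) scale, and in 1 (JDP2) at least 1 below it. These shares were 2.83% and 2.24% for all tested genes. Of the 6 C/EBP genes, 4 were tested and 0 passed (limma), with 2 lower and 0 higher at an unadjusted p under 0.05 (background 16.9% and 3.86%) and a median of -0.69. CEBPB had a log2 fold change of -0.94 (SE 0.27, limma adjusted p = 0.125) and CEBPD, which is closely related to it, of -0.96 (SE 0.32, limma adjusted p = 0.161), from 9.55 and 16.5 FPKM in WT cells to 4.87 and 7.34 in C/EBPβ enh-/- cells. DDIT3, a stress-induced C/EBP gene, had the widest gap of all listed genes between the C/EBPβ enh-/- libraries on that scale, at 114.5 and 22.9 FPKM, and its WT libraries were also far apart, at 78.8 and 19.3. CEBPB was at -0.62 without WT library 1 and CEBPD at -0.59 without WT library 2.

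A list of 23 genes that AP-1 is known to activate held 15 tested genes, of which 0 passed (limma). At an unadjusted p under 0.05, 3 of the 15 were lower and 1 higher, against 16.9% and 3.86% of all tested genes, and the median log2 fold change was -0.62, against -0.14. For 7 of the 15, each C/EBPβ enh-/- library was below either WT library, against 37.5% of all tested genes. The cytokine gene IL11 was at 9.31 and 4.81 FPKM in WT cells and 5.72 and 0.659 in C/EBPβ enh-/- cells (log2 fold change -1.21, SE 0.63, limma adjusted p = 0.322). With 1 library left out it was -0.20 without C/EBPβ enh-/- library 2, -2.22 without C/EBPβ enh-/- library 1 and -0.80 without WT library 1. CCND1, the cyclin of early G1, was at 27.4 and 45.3 against 13.9 and 16.6 (log2 fold change -1.17, SE 0.29, limma adjusted p = 0.0957). PLAUR, IL8 and IL11, 3 of the 15, were at least 1 higher in C/EBPβ enh-/- library 1 than in library 2, by 1.08, 1.75 and 2.02 on the log2(FPKM + 1) scale. Of all tested genes 2.83% were, and 2.24% were at least 1 higher in library 2. IL8 was low, at 0.03 and 0.788 FPKM in WT cells and 3.31 and 0.278 in C/EBPβ enh-/- cells. The collagenases and stromelysins MMP1, MMP3, MMP10 and MMP13 were at most 0.123 FPKM in every library.

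Among genes that MYC is known to activate, ODC1, the rate-limiting enzyme of polyamine synthesis, fell in C/EBPβ enh-/- cells. ODC1 was at 81.0 and 98.7 FPKM in WT cells and 38.05 and 30.04 in C/EBPβ enh-/- cells (log2 fold change -1.38, SE 0.24, limma adjusted p = 0.0484). Its call was lost in 10 of 14 alternatives, with adjusted p = 0.0584 without the mean-variance trend, 0.0799 with the replicate block and 0.123 to 0.262 with any 1 library left out (limma), while its log2 fold change stayed between -1.54 and -1.15. Of 22 such genes, 20 were tested, and ODC1 was the 1 that passed, against 1.21% of all tested genes called lower. At an unadjusted p under 0.05, 7 of the 20 were lower and 0 higher, against 16.9% and 3.86% of all tested genes. The C/EBPβ enh-/- libraries were both below the WT range for 12 of the 20 and both above it for 2, where 37.5% and 15.1% of all tested genes were. The median was -0.36, against -0.14. ENO1, a glycolytic enzyme, was at 1706 and 1682 FPKM against 832 and 855 (log2 fold change -1.0, SE 0.19, limma adjusted p = 0.0598). None of the 20 differed by 1 or more between the C/EBPβ enh-/- libraries, unlike FOS and JUN.

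In the network of proteins around MYC, 9 of 11 genes were tested and 0 passed (limma), with 0 lower and 1 higher at an unadjusted p under 0.05 (background 16.9% and 3.86%) and a median of -0.07, against -0.14. MXD3, which pairs with MAX and opposes MYC, was at 22.2 and 31.5 FPKM in WT cells and 57.8 and 39.2 in C/EBPβ enh-/- cells (log2 fold change 0.82, SE 0.29, limma adjusted p = 0.172). MXI1, of the same kind, was at 21.0 and 16.1 against 14.2 and 12.96 (log2 fold change -0.42, SE 0.23, limma adjusted p = 0.349), and its log2 fold change was -0.24 without WT library 1. The other MYC genes, MYCN and MYCL, were below an FPKM of 1 in every library.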

How the data were processed

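The RNA-seq libraries, 2 of each genotype, came from cells that the labels call HepG2, and genotypes were taken from the labels. The authors deposited FPKM per gene and library, and the submitters' processing notes name hg19, TopHat2 2.0.13, Cufflinks and edgeR without their settings. The extraction protocol in the labels describes chromatin, so RNA selection and strand are not given in the sources used here, nor is any scaling between libraries. The library identifiers in the labels give no batch that separates the samples. Of 57815 gene entries, 47 pseudoautosomal copies were left out. Symbols and positions came from GENCODE release 44 lifted to GRCh37, and promoters from RefSeq.

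Depth was read from genes with 1 transcript over 1000 nt and an FPKM under 0.3, as the library size that put most values within 0.1 of a whole fragment number. From 44.5% to 46.6% of the values did so, and depths are approximate. No counts were recovered.

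Values were compared as log2(FPKM + 1), which understates the change of low genes, over the 12491 genes averaging an FPKM of 1 or more, by limma 3.58.1 under R 4.3.3 (moderated variances that follow the mean, both directions tested, Benjamini-Hochberg adjustment, threshold 0.05). The fit was tested on simulated data. Tables were made with pandas 2.3.3 and numpy 2.4.6 under Python 3.11.15, figures with matplotlib 3.10.9. The genes, lists and motifs were chosen with earlier results of these data known. Named were the 10 genes, CEBPB, and from each list of related genes (cell type markers aside) those past the threshold (at most 5) or, where fewer than 2 passed, the 2 with the largest log2 fold change. Other genes were named after their values were seen. The fit was repeated with each library left out, with the replicate block, with rescaled or centred libraries, on protein-coding genes, with a constant variance prior, with 0.1 as the pseudocount, and with the FPKM limit dropped or raised to 5. Added after seeing the data were rescaling without the highest genes and leaving out genes listed at 0.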

Additional observations from a re-analysis of the deposited data

How the results depend on the processing

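None of the 8 tested genes passed the threshold (limma) under any of 14 alternatives, of which 2 were added after seeing the data, and MYC and JUND kept their direction in all of them. The log2 fold change of MYC ranged from -1.22 to -0.77 (adjusted p from 0.0502 to 0.379, limma) and that of JUND from -0.82 to -0.41 (adjusted p from 0.153 to 0.547, limma). With 1 library left out at a time, the log2 fold change lay between -0.34 and 1.21 for FOS, -0.21 and 0.98 for FOSL1, -0.27 and 1.0 for JUN, -0.31 and 0.59 for JUNB, -0.07 and 0.08 for FOSL2, -0.53 and 1.36 for DUSP5, -0.37 and 1.57 for CTGF, and -1.04 and 0.81 for CYR61. In these 8 genes the lowest value came without C/EBPβ enh-/- library 1 and the highest without C/EBPβ enh-/- library 2. BATF3 lay between -0.64 without WT library 2 and -0.09 without WT library 1. FOSL2 was also negative without WT library 1, at -0.01. CYR61 was positive at 0.31 without WT library 2, at 0.06 with centred libraries and at 0.09 with libraries rescaled without their highest genes (added). The median of the 8 genes was 0.07. It was -0.29 without C/EBPβ enh-/- library 1, 0.34 without C/EBPβ enh-/- library 2, 0.25 with centred libraries, and -0.31 with a mean FPKM of at least 5, where 4 genes were left.

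Over all genes, 151 were called lower and 31 higher. Without a filter 0 were called (limma), with 2710 lower and 1136 higher at an unadjusted p under 0.05. The lower calls were 61 with libraries rescaled to the same total, 58 with the highest genes left out of that total (added), and 68 with centred libraries. Over all tested genes the median difference moved from -0.14 to 0.03 with centring and to 0.06 with the highest genes left out. Among protein-coding genes 457 were lower and 60 higher, and without genes listed at 0 in any library (added) 324 and 47. With a mean FPKM of at least 5, 20 were higher. The cause of these shifts was not tested. Leaving out 1 library at a time gave 9 to 22 lower and 3 to 20 higher, with the lone library assumed to vary like the others. JDP2, KLF4, SGK1 and ENO1 passed among protein-coding genes and without genes listed at 0, and ENO1 also with a mean FPKM of at least 5.

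Both genotypes carry replicate numbers 1 and 2, but the deviations of same-numbered libraries had a correlation of 0.0094, so the numbers were not taken as a pairing. With the replicate block 93 genes were lower and 31 higher, ODC1 and KRT18 (adjusted p = 0.0524, limma) were no longer called, and 0 of the 8 tested genes passed (adjusted p = 0.121 for MYC and 0.253 for JUND, limma). EGR1, FOSB, FOSL1 and BATF3 rest on few fragments, and how far depth limits their differences was not tested.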
